A study of Bos taurus with 16 samples.

Results

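The transcriptome of the bovine blastocyst under an ordinary lactation diet was described from 7 pools of embryos of control cows, out of 8 control pools and 16 pools in the series. The members were the control pools named Control 1.1, 1.2, 2.1, 2.2, 3.1, 4.1 and 4.2, in which the first digit is the cow and the second the pool, and they came from 4 cows. The pool left out, Control 3.2, had 1745048 counts in all. The study omitted it too, since most of its reads lay outside exons. The donors were Holstein cows on a basal diet without added rumen-protected methionine, which were superovulated and inseminated. Expanded blastocysts were flushed from the uterus and pooled by cow, although the tissue label of the samples reads IVF embryos. The pools of cow 4 held a single blastocyst each, unlike those of the other cows used here. RNA was amplified linearly before sequencing. The 2 pools of a cow are not independent animals, and sire and sequencing lane are not given for single pools. In such bulk samples, fewer cells of a type and less RNA per cell cannot be told apart.

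A blastocyst is the stage at which the embryo becomes a fluid-filled ball. An outer epithelium, the trophectoderm, pumps sodium and water into the cavity, called the blastocoel, and later forms the fetal part of the placenta. Inside it lies the inner cell mass, which gives rise to the pluripotent epiblast and to the primitive endoderm, the source of the yolk sac. The embryo has by then activated its own genome and degraded most messenger RNA left by the oocyte, and it has not yet formed tissues. The lists of genes used here follow these events. They hold machinery that every cell needs, programmes of the blastocyst, programmes of later tissues, and markers of maternal and germ cells that could be carried over at flushing.

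Counts per pool ranged from 5624126 to 7778414, with a median of 6668507, over 22358 loci. Levels are given as CPM, the counts of a locus over the total of its pool and scaled to 1000000, so they are shares of the reads and not numbers of transcripts, and a rank by CPM is not corrected for transcript length. A floor of 3 counts corresponded to between 0.386 and 0.533 CPM. A locus was called detected with at least 1 CPM in all 7 pools, and undetected with under 3 counts in every pool. By these rules 5885 loci (26.3%) were detected and 8179 (36.6%) were undetected, of which 6629 had no count in any pool. The detected loci held between 96.0% and 97.8% of the counts of each pool. Between 8281 and 9235 loci reached 1 CPM in a given pool, and 2465 loci reached it in exactly 1 pool.

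Few loci carried most of the reads. The leading 10 loci of a pool took 12.05 ± 1.34% of its counts (SD, n = 7 pools) and the leading 100 took 42.1 ± 2.94%. Between 130 and 217 loci, with a median of 154, were enough to hold 50% of the counts of a pool. Averaged over pools, 175 loci reached 1000 CPM and 1414 reached 100 CPM. Named genes took 94.0% of the counts, loci known only by a LOC identifier 2.77%, and units that the authors' assembly found outside the annotation 3.22 ± 0.363%.

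Genes of protein synthesis led the ranking. Of the 30 loci with the highest mean CPM, 17 encode proteins of the cytosolic ribosome, of which 16 are on the list of ribosomal proteins and RPL36A was left out of it. RPL23, a protein of the large ribosomal subunit, was first with 18821 ± 4619 CPM, and its values ran from 12137 in Control 4.2 to 23716 in Control 2.1 with a median of 20733. RPS21, of the small subunit, had 11069 ± 3990 CPM, from 5798 in Control 4.2 to 17014 in Control 1.1. RPL15 (10293 CPM), RPS19 (10162 CPM), RPS18 (9679 CPM) and RPL36 (9372 CPM) had lower means. The order from RPS21 to RPL36 was not fixed, since the mean of each lay within the range over pools of the next one named.

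The loci outside the ribosome among these 30 belonged to a small number of functions. FTH1, the heavy chain of the iron store ferritin, had a median of 6347 CPM, a lowest value of 3853 in Control 1.2 and a highest of 17811 in Control 2.1. Cytoplasmic actins were present as ACTG1 with 7797 ± 4124 CPM and ACTB with 6015 ± 1347 CPM, and tubulin as TUBA1C with 4996 ± 2282 CPM at a locus that also carries the name LOC100141266. ODC1, the enzyme that opens polyamine synthesis, had a median of 5747 CPM, with 3574 in Control 1.2 and 16168 in Control 4.2. Respiration was represented by COX7A2 (6638 CPM) and COX5B (5497 CPM), subunits of cytochrome c oxidase, and by NDUFA13 (4683 CPM), a subunit of complex I.

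FKBP1A and PTMA were the least even of these loci. FKBP1A, a prolyl isomerase that binds FK506, had 5325 ± 3552 CPM and ranked between 5 and 164 over the pools. PTMA, the acidic nuclear protein prothymosin alpha, had 5248 ± 3619 CPM and ranked between 3 and 239. Its values were 712 CPM in Control 4.2 and 11051 CPM in Control 2.2. An assembled unit with no annotated gene, CUFF.3369.1, stood among the 30 with 5015 ± 981 CPM and was more even than most of them, with a coefficient of variation of 0.196. In all, 27 of the 30 loci were among the leading 100 of every pool.

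**Figure D1:**
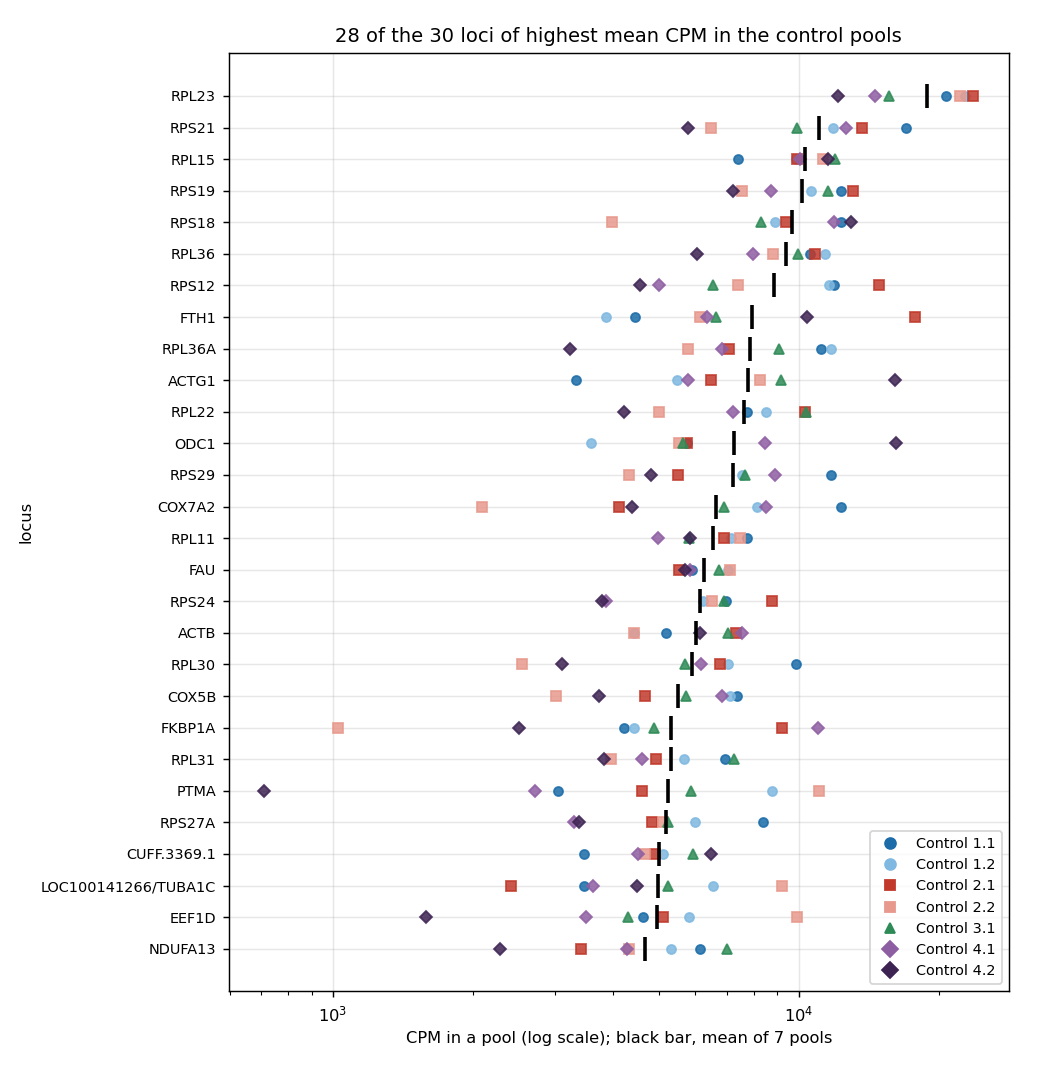
CPM of 28 of the 30 loci with the highest mean (horizontal axis, log scale) in each of the 7 control pools, with a point per pool and a black bar at the mean. RPL23 leads with a mean of 18821 CPM, and FKBP1A and PTMA span the widest ranges, PTMA from 712 to 11051 CPM.

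Below rank 30 the ranking remained mixed between ribosomal proteins and other abundant genes. Of the leading 100 loci by mean, 38 were on the ribosomal list, 11 on the list of nuclear genes of oxidative phosphorylation and 5 on that of translation factors. The others included ROMO1 (4568 CPM), a small protein of the mitochondrial inner membrane, and TMSB4X (4518 CPM), which sequesters actin monomers. The keratin gene KRT18 had 4178 CPM. Chromatin was represented by H3F3A (2902 CPM) and H3F3B (1923 CPM), which encode the replication-independent histone H3.3, by the histone chaperone NASP (2603 CPM), by PARP1 (2402 CPM), which senses DNA breaks, and by HMGB1 (1864 CPM). Splicing was represented by SNRPD1 (2878 CPM) and SNRPD2 (1601 CPM), core proteins of the spliceosomal snRNPs, and by SRSF2 (2127 CPM). CITED2 (1803 CPM), a transcriptional coregulator, and CD9 (1628 CPM), a tetraspanin of the cell surface, were in this range too. Of the leading 100, 4 were assembled units and 3 were LOC loci.

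The machinery shared by all cells was detected almost whole. All 74 ribosomal protein genes found in the files were detected, and together they took 23.2 ± 3.51% of the counts. That share was 28.4% in Control 1.1, 25.3% in Control 1.2 and 25.8% in Control 2.1, and it was lowest at 18.9% in Control 2.2. All 36 translation factors were detected as well, with 2.69 ± 0.279% of the counts. EEF1D, of the elongation factor that recharges EF1A, led them with 4973 ± 2555 CPM, followed by the helicase EIF4A1 with 3438 ± 1498 CPM and the translocase EEF2 with 3027 ± 1742 CPM. EEF2 stood at 6722 CPM in Control 4.2 and between 1778 and 3718 CPM elsewhere.

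Energy production by mitochondria held the next largest share of these lists. Of 69 nuclear genes of oxidative phosphorylation 67 were detected, with 5.57 ± 1.12% of the counts. As with the ribosome, Control 1.1 had the highest share (7.36%) and Control 2.2 the lowest (4.12%). Beside the subunits named above, the leading members were ATP5G3 (2858 ± 687 CPM) and ATP5G1 (2244 ± 585 CPM), which encode the rotor subunit of ATP synthase. COX6C, at 1.44 CPM, and NDUFV2, at 0.113 CPM, were the exceptions.

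Protein turnover and folding were also covered. Of 31 proteasome genes 30 were detected, and PSMB5, a catalytic subunit, led them with 615 ± 133 CPM. Of 24 chaperone genes 23 (95.8%) were detected, beside 26.3% of all loci. HSPE1 (2217 ± 665 CPM), the mitochondrial co-chaperonin, and HSPA8 (1343 ± 856 CPM), the constitutive HSP70, led them. HSP90AA1, which encodes HSP90 alpha, had the lowest coefficient of variation of the list, with 1249 ± 226 CPM. The stress-inducible HSPA1A had 1.74 CPM. Of 11 subunits of RNA polymerase II 10 were detected, led by POLR2F (616 ± 227 CPM).

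Genes of DNA replication and mitosis were detected in 32 of 38 cases (84.2%), beside 26.3% of all loci. RRM2, which makes deoxyribonucleotides, led with 334 ± 105 CPM, followed by the cyclin-dependent kinase subunit CKS2 (223 ± 80.0 CPM) and the mitotic kinase AURKA (204 ± 99.6 CPM). Among the D cyclins, CCND2 had 128 ± 39.1 CPM, whereas CCND1 had at most 6 counts in a pool. BUB1B, a checkpoint kinase, had at most 2 counts and PLK1 had 0.729 CPM. Over the 5 complexes of ribosome, translation, proteasome, respiration and RNA polymerase II, 217 of 221 genes (98.2%) were detected and none was undetected, against 26.3% and 36.6% of all loci.

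Glycolysis differed from these lists, with 11 of 17 genes (64.7%) detected and 1 (5.88%) undetected, beside 26.3% and 36.6% of all loci. Glucose carriers were clearly counted. SLC2A3, a carrier of high affinity for glucose, had a lowest value of 867 CPM, a median of 1204 and a highest of 4355 in Control 4.2, and SLC2A1 had 242 ± 66.7 CPM. The mutase PGAM1 (941 ± 292 CPM), the aldolase ALDOA (492 ± 205 CPM) and the lactate dehydrogenase LDHB (201 ± 134 CPM) were detected too. Several enzymes of the same pathway were at or near the floor. GAPDH, at 2 loci summed, had 7, 6, 5, 18, 6, 8 and 16 counts in the order of the pools given above. TPI1 had 128 counts in Control 2.1, 5 in Control 2.2 and 0 in the other 5 pools. PFKP was listed at 0 in every pool, and PKM2 had 2.62 CPM.

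Since GAPDH and TPI1 are used by every cell, a count near 0 in these files is not read as absence of the transcript. The study chose GAPDH as PCR control for the same RNA, citing stable expression in its sequenced samples, whereas GAPDH counts here were near 0. Other genes that are abundant in most cells were as low. FTL, the light chain of ferritin, had 2.52 CPM beside 7950 for FTH1, and the actin-severing protein CFL1 had 1.06 CPM. The tubulin gene TUBA1B had 0.620 CPM beside 4996 for TUBA1C. Whether reads of such genes were assigned to other loci was not tested.

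Keratins of simple epithelia, which mark the trophectoderm, were all detected and differed widely in level. KRT18, the type I keratin, was the 1 member among the leading 100 loci and had values between 2567 CPM in Control 1.1 and 6291 in Control 2.2, with a mean of 4178 ± 1307. Its partner KRT8 had 619 ± 666 CPM. The value of KRT8 in Control 4.2 was 2114 CPM and the other 6 pools lay between 209 and 489 CPM. KRT7, between 3.91 and 28.6 CPM, and KRT19, with 5.54 ± 3.35 CPM, were detected in all pools at a much lower share of reads.

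Of 28 genes of cell junctions 17 (60.7%) were detected and 1 (3.57%) was undetected, beside 26.3% and 36.6% of all loci. Desmosomes were represented by the cadherin DSG2 with 1088 ± 417 CPM, from 586 to 1644. The adherens junction was represented by its cytoplasmic partners CTNND1 (580 ± 152 CPM), CTNNA1 (217 ± 142 CPM) and CTNNB1 (149 ± 102 CPM), while E-cadherin itself, CDH1, had 13, 4, 9, 18, 0, 37 and 127 counts. Tight junctions were represented by the claudins CLDN6 (403 ± 225 CPM) and CLDN4 (139 ± 105 CPM), by the scaffold TJP1 (83.0 ± 53.9 CPM) and by OCLN (14.0 ± 7.13 CPM).

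Genes of ion and water transport into the blastocoel were represented by particular members. The beta subunit ATP1B3 of the sodium pump had 1575 ± 792 CPM, from 768 to 2887, and the regulatory subunit FXYD4 had 127 ± 69.9 CPM. The other beta subunits were near 0, since ATP1B1 had 1 count in 1 pool and none elsewhere, and ATP1B2 had 4 counts in Control 1.1 only. Among water channels AQP3 was detected with 1269 ± 803 CPM, from 462 CPM to 2659 in Control 4.2. AQP11 reached 1 CPM in 6 pools with a mean of 5.39 CPM, and AQP8 and AQP9 were undetected. In this list 4 of 11 genes (36.4%) were detected and 3 (27.3%) undetected, beside 26.3% and 36.6% of all loci.

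Transcription factors of the trophectoderm spanned the whole range of levels. GATA2 was the leading one, with a lowest value of 399.5 CPM, a median of 660 and a highest of 1737 in Control 4.2. TFAP2C followed with 344 ± 108 CPM, from 237 to 550.5. KLF5 (157 ± 93.5 CPM), TEAD4 (119 ± 53.0 CPM), which acts in the Hippo pathway, and GATA3 (49.5 ± 20.5 CPM) were detected in all pools, as were ETS2 (44.5 ± 40.3 CPM) and ID1 (22.8 ± 18.3 CPM). The caudal factor CDX2 had 27, 60, 11, 21, 203, 0 and 1 counts, so that both pools of cow 4 had at most 1 count. HAND1 had 746 counts in Control 1.2, 499 in Control 4.1, 31 in Control 1.1 and at most 4 in the others. ELF5 reached 1 CPM in Control 4.1 only, with 80 counts, and EOMES, a T-box factor of mouse trophoblast, had no count. In all, 7 of 19 genes (36.8%) were detected and 1 (5.26%) was undetected, beside 26.3% and 36.6% of all loci.

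Factors of pluripotency were counted at a lower level. POU5F1 had 34.8 ± 22.9 CPM, from 12.6 CPM to 73.2 in Control 4.2. SOX2, its partner on DNA, had 16.7 ± 8.92 CPM, from 10.4 to 36.1. NANOG had 12, 44, 45, 169, 202, 1 and 188 counts, and so reached 1 CPM in 6 of 7 pools. The chromatin-associated proteins DPPA4 (119 ± 117 CPM) and DPPA3 (101 ± 40.0 CPM), the RNA-binding protein LIN28A (26.4 ± 13.1 CPM) and SALL4 (14.3 ± 10.7 CPM) were detected in all pools. KLF4 had the highest mean of this list, at 371 CPM, but its median was 126 CPM, and Control 4.2, at 1624 CPM, held 62.5% of the CPM summed over pools. FGF4, NODAL and the de novo DNA methyltransferase DNMT3B had no count in any pool. Of 22 genes 7 (31.8%) were detected and 4 (18.2%) undetected, beside 26.3% and 36.6% of all loci.

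The list of the primitive endoderm was led by genes of the extracellular matrix and of endocytosis. FN1, which encodes fibronectin, had a lowest value of 926 CPM, a median of 1404 and a highest of 3703 in Control 4.2. The laminin chains LAMB1 (401 ± 216 CPM) and LAMC1 (51.8 ± 31.3 CPM) and the collagen COL4A1 (14.5 ± 7.14 CPM), which build basement membranes, were detected. DAB2, an endocytic adaptor, was among the more even genes, with 325 ± 75.1 CPM. The receptor PDGFRA (80.9 ± 50.0 CPM) and the factor GATA6 (74.5 ± 41.6 CPM), early marks of the lineage, were detected in all pools. SOX17, SOX7 and CER1 had no count, and GATA4 had at most 2 counts in a pool. Of 24 genes 10 (41.7%) were detected and 6 (25%) undetected, beside 26.3% and 36.6% of all loci. These matrix genes are used by other cells too, and the list does not tell which cells held the transcripts.

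**Figure D2:**
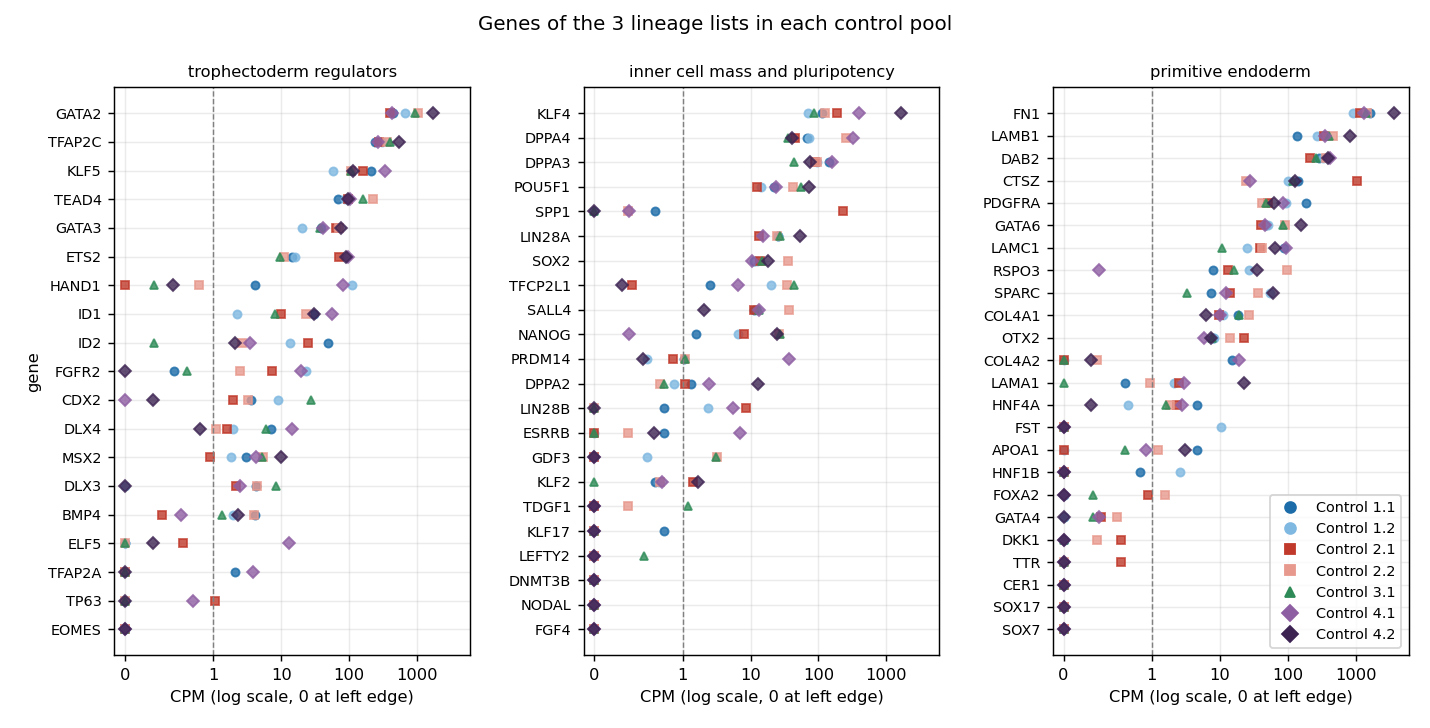
CPM (horizontal axes, log scale, with 0 drawn at the left edge) of every gene of the trophectoderm, inner cell mass and primitive endoderm lists, with a point for each of the 7 control pools and a dashed line at 1 CPM. GATA2, KLF4 and FN1 lead the 3 lists, and EOMES, FGF4, NODAL, DNMT3B, SOX7, SOX17 and CER1 are at 0 in every pool.

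The list of the ruminant trophoblast held secreted products, which signal pregnancy to the mother later on, and enzymes of prostaglandin synthesis. Its genes were mostly low. Of 21 genes 3 (14.3%) were detected and 9 (42.9%) undetected, beside 26.3% and 36.6% of all loci. The interferon tau gene IFNT2 had 19, 0, 29, 126, 54, 42 and 26 counts, which came to 6.39 ± 6.32 CPM. The pregnancy-associated glycoprotein PAG2 reached 1 CPM in 3 pools. PTGES3, a co-chaperone that is also a prostaglandin E synthase, had 394 ± 308 CPM, and PTGS2, the inducible cyclooxygenase, had 25.4 ± 12.1 CPM. Both are enzymes and not secreted products, and PTGES3 held most of the 440 CPM that the list summed to on average. The interferon and glycoprotein families have near-identical members, and only uniquely mapped reads were counted, so their values are uncertain.

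Transcripts typical of the oocyte were mostly low. Of 28 genes 3 (10.7%) were detected and 8 (28.6%) undetected, beside 26.3% and 36.6% of all loci. GDF9 had no count and NLRP5 had 8 counts in Control 2.1 only. The exceptions were the receptor KIT (105 ± 60.7 CPM), the zona pellucida gene ZP3 (11.1 ± 8.61 CPM) and FBXO15 (10.2 ± 7.38 CPM).

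Enzymes that write and read DNA methylation were uneven. DNMT3A, a de novo methyltransferase, had 712 ± 281 CPM, from 439 CPM to 1091. DNMT1, which copies methylation at replication, had 86, 106, 1, 160, 45, 33 and 184 counts, or 12.5 CPM, and its partner UHRF1 had 45.3 ± 50.8 CPM, with 155 in Control 4.2 and 1.65 in Control 1.2. TET3 had no count, as had DNMT3B. In the list 4 of 12 genes (33.3%) were detected, beside 26.3% of all loci.

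Of 29 genes of the methionine and folate cycles 20 (69.0%) were detected and 3 (10.3%) undetected, beside 26.3% and 36.6% of all loci. Beside ODC1, the leading ones were the folate receptor FOLR1 (1310 ± 416 CPM), the spermine synthase SMS (287 ± 108 CPM), MAT2A (192 ± 52.5 CPM), which makes S-adenosylmethionine, and AMD1 (157 ± 53.1 CPM), which decarboxylates it for polyamines. Remethylation of homocysteine was nearly uncounted, since MTR had at most 27 counts in a pool and the liver enzyme BHMT had none. MTHFD1L, a mitochondrial folate enzyme, was even across pools, with 110 ± 21.5 CPM.

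Among imprinted genes 5 of 20 (25%) were detected, which is near the 26.3% of all loci. They were IGF2R (62.6 ± 21.4 CPM), GRB10 (61.3 ± 44.9 CPM), GNAS (43.0 ± 19.6 CPM), MEG3 (6.05 ± 2.82 CPM) and XIST (556 ± 417 CPM). H19, PEG3, PEG10, DLK1 and KCNQ1 had no count, and IGF2 had 9 counts in Control 2.1 and 1 in Control 1.1.

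Transport and redox genes completed the blastocyst lists. Of 23 amino acid transporters 11 (47.8%) were detected and 5 (21.7%) undetected, beside 26.3% and 36.6% of all loci. The detected ones were led by SLC1A5 (167 ± 94.5 CPM), which carries glutamine, SLC38A2 (92.8 ± 57.1 CPM) and SLC7A5 (81.9 ± 74.4 CPM), which carries leucine. Of 24 antioxidant genes 15 (62.5%) were detected and 5 (20.8%) undetected, beside the same shares of all loci. The peroxiredoxin PRDX1 led them with 1189 ± 376 CPM, followed by thioredoxin, TXN, at 601 ± 296 CPM and the peroxiredoxin PRDX2 at 481 ± 211 CPM. The superoxide dismutases SOD2 (66.5 ± 32.9 CPM) and SOD1 (25.3 ± 13.6 CPM) and catalase, CAT (15.6 ± 10.6 CPM), were lower. Of 8 genes of iron handling 5 (62.5%) were detected, beside 26.3% of all loci. After FTH1, IREB2 (110 ± 40.9 CPM), an RNA-binding regulator of iron genes, was the highest of them.

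Few genes of later tissues were detected. Over 8 such lists, 13 of 217 genes (5.99%) were detected and 108 (49.8%) undetected, beside 26.3% and 36.6% of all loci. The median of their mean levels was 0.0643 CPM, against 0.633 for all loci and 264 for the machinery lists. Of 45 transcription factors of gastrulation and lineages 25 were undetected, and T, MIXL1 and MYOD1 had no count. Insulin (INS), glucagon (GCG) and the lens crystallin CRYAA had no count, and 6 of 7 milk protein genes were undetected. Of 34 HOX genes 14 were undetected.

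The 13 members that were detected were spread over 7 of the 8 lists. TNNI3, annotated as cardiac troponin I, had 220 ± 145 CPM, from 45.8 to 465, and MYBPC3, a myosin-binding protein of the heart, had 113 ± 121 CPM. A locus that carries the names MYH1 and MYH8 had 54.1 ± 36.0 CPM, and the giant muscle proteins TTN and NEB had 17.2 ± 12.2 and 9.59 ± 6.94 CPM. HOXB2 had between 90 and 376 counts per pool (35.7 ± 20.7 CPM) and HOXD9 between 20 and 401 (25.5 ± 22.2 CPM), whereas 12 HOX genes had no count. SNAI1, a repressor of epithelial genes, had 35.5 ± 19.9 CPM, and the complement gene C3 had 84.3 ± 48.0 CPM. BFSP1, a filament protein of the lens, had 15.4 ± 8.76 CPM, and GP2, a glycoprotein of pancreatic secretory granules, had 10.7 ± 13.5 CPM with 39.3 in Control 3.1. Of the neuronal list, the intermediate filament gene INA had 8.63 ± 4.06 CPM and the tubulin gene TUBB3 had 2.25 ± 0.975 CPM. Whether the reads at such loci came from the annotated gene or from a neighbouring or overlapping transcript was not tested.

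**Figure D3:**
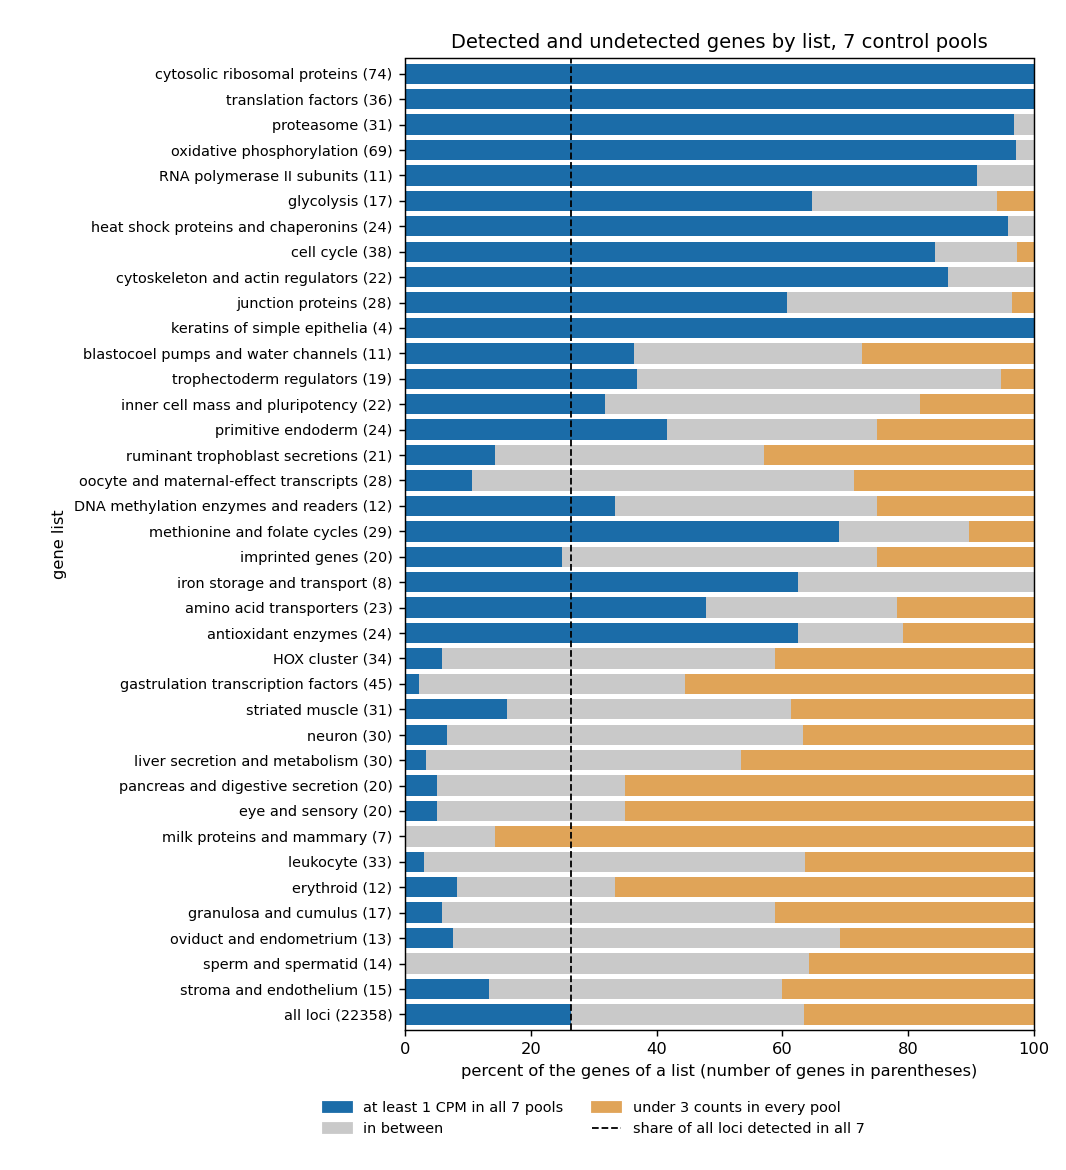
Percent of the genes of each list (horizontal axis) that had at least 1 CPM in all 7 pools, that had under 3 counts in every pool, or that lay in between, with the number of genes in parentheses and all 22358 loci in the last bar. The dashed line marks the 26.3% of all loci that were detected.

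Pools shared part of their leading loci. Among the 10350 loci with a summed CPM of at least 7, the Spearman correlation across loci between pools lay between 0.701 and 0.810 for the 21 pairs, with a median of 0.760. Loci are not independent replicates and pairs share pools, so these correlations are a description without a p-value. A pair of pools shared between 64 and 83 of their leading 100 loci. In all 7 pools 52 loci were among the leading 100, 28 of them on the ribosomal list, and 182 loci were there in at least 1 pool. The share common to all pools was 46% for the leading 50 loci, 52% for the leading 100 and 54.6% for the leading 500. Control 2.1 had the lowest mean correlation with the other pools (0.727) and Control 1.1 the highest (0.792).

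The spread between pools narrowed with level but stayed far above counting error. For 4694 loci with means from 1 to 10 CPM the median coefficient of variation over pools was 1.18, against 0.208 from counting error alone, and in 43.6% of them 1 pool held at least 50% of the summed CPM. For 4242 loci from 10 to 100 CPM the median was 0.630 and this share was 9.36%. For 1239 loci from 100 to 1000 CPM it was 0.441, against 0.0278 from counting, with 22 loci held mostly by 1 pool. For the 175 loci above 1000 CPM it was 0.334, and none was held mostly by 1 pool.

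**Figure D4:**
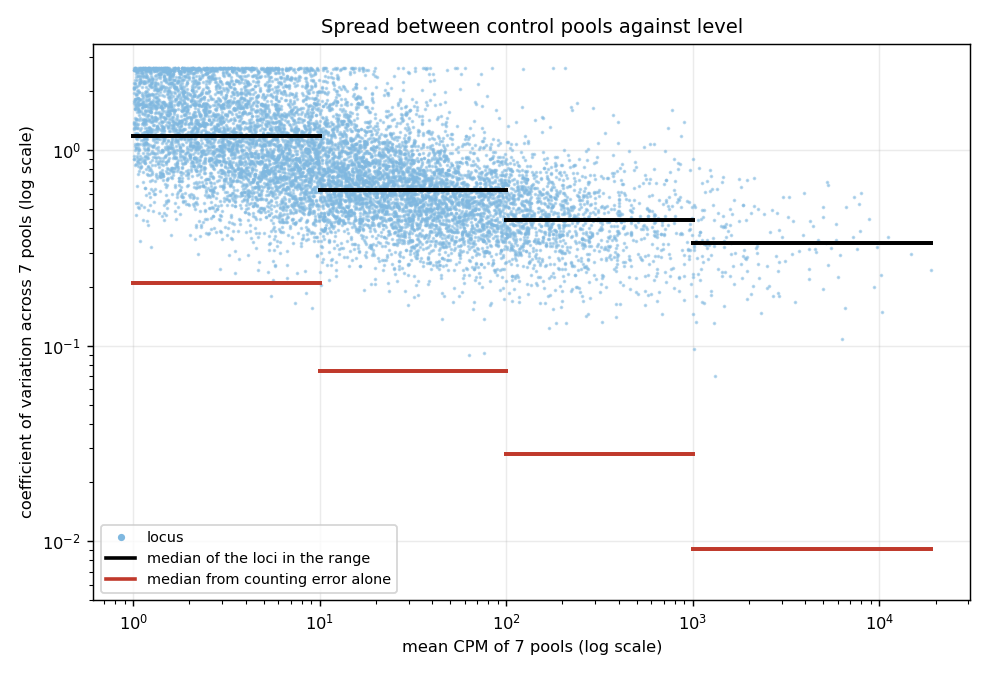
Coefficient of variation of CPM over the 7 pools (vertical axis, log scale) against mean CPM (horizontal axis, log scale), with a point for each of 10350 loci. The black lines, the medians, fall from 1.18 below 10 CPM to 0.334 above 1000 CPM, and the red lines, from counting error alone, lie lower throughout.

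The most even loci above 100 CPM spanned a wide range of levels, with means from 169 to 6271 CPM. RPS4X, an X-linked ribosomal protein, had 1306, 1293, 1506, 1282, 1225, 1253 and 1348 CPM, with a coefficient of variation of 0.0702. TRMT112 followed with 1011 ± 97.2 CPM. It is an activating subunit of several methyltransferases. FAU, which encodes a ribosomal protein fused to a ubiquitin-like protein, had 6271 ± 677 CPM. The next were the small GTPase NRAS (169 ± 20.9 CPM), the replication factor GINS2 (208 ± 27.1 CPM), the adhesion protein MPZL2 (1291 ± 169 CPM), the dUTPase gene DUT (184 ± 24.3 CPM) and ATP6V1G1 (325 ± 42.9 CPM), a subunit of the vacuolar proton pump. The assembled units CUFF.1726.1 (1038 ± 137 CPM) and CUFF.3402 (388 ± 54.2 CPM) completed the 10. ACTB, often used for scaling, had a coefficient of variation of 0.224.

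At the other end, some abundant loci owed their mean to 1 pool. The highest of these was CSRP2, a LIM-domain protein, with 3676 CPM in Control 4.2 and between 238 and 927 CPM elsewhere. RHOB, a small GTPase, had 3091 CPM in Control 4.1 and at most 935 elsewhere. B2M, the invariant chain of MHC class I, had 3579 CPM in Control 2.1 and at most 702 elsewhere. Control 2.1 also held most of the CPM of SEL1L, which acts in degradation of misfolded proteins, of the cathepsins CTSB (1582 CPM there) and CTSZ (1035 CPM) and of the copper transporter SLC31A2 (1175 CPM). The last of the 10 were KLF4 and LOC100851039 in Control 4.2 and HUWE1, a ubiquitin ligase, in Control 4.1. Of 419 loci with a mean of at least 10 CPM that were held mostly by 1 pool, 95 were so in Control 4.2, 90 in Control 2.1, 81 in Control 1.2, 54 in Control 4.1, 46 in Control 2.2, 37 in Control 3.1 and 16 in Control 1.1.

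Differences between cows were tested over the 10350 loci with the quasi-likelihood F-test of edgeR, which asks whether cows differ by more than the pools of a cow do. No locus (0%) passed an FDR of 0.10, the smallest FDR was 0.809, and 578 loci had an unadjusted p under 0.05. The likelihood ratio test of DESeq2 called 321. The fit had 3 residual degrees of freedom and a biological coefficient of variation of 0.946. Without Control 2.2 the quasi-likelihood test called 7 loci.

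The loci with the smallest p were counted almost wholly in 1 or 2 cows. Several of them had nearly all their counts in Control 3.1, the only pool of cow 3 used here, and so rest on 1 library. TMEM200C had 270 and 1586 counts in the pools of cow 1 and at most 1 in the others, and NHLH2, a neuronal bHLH factor, had 71 and 420 against at most 1. CD83, a surface protein of activated antigen-presenting cells, had 297 and 105 counts in the pools of cow 2 and at most 1 elsewhere. PIF1, a DNA helicase, had 482 and 814 counts in the pools of cow 4 and 286 in that of cow 3, against 5 to 52 in the others. The FDR of each was 0.809 by edgeR, so none passed that test. By the likelihood ratio test of DESeq2 all 4 passed, with FDRs of 5.26e-12 for TMEM200C, 2.72e-10 for PIF1, 3.35e-05 for CD83 and 0.000240 for NHLH2. Spearman correlations within a cow (0.757 ± 0.0313, SD, n = 3 pairs) lay inside the range of those between cows (0.761 ± 0.0340, n = 18 pairs).

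Control 2.1 stood apart in part of the markers of leukocytes. The genes of that list summed to 2996 CPM there and to between 11.9 and 196 CPM in the other 6 pools, and 20 of its 34 loci had at least 3 counts in Control 2.1 against 4 to 10 in the others. LAPTM5, a lysosomal protein of blood cells, had 6969 counts there and between 3 and 7 elsewhere. NKG7 had 2698 counts, TYROBP 2122 and SLAMF7 1396. Some other members were higher in another pool. CD14 had 84 counts in Control 2.2 and 5 in Control 2.1, and CSF1R had 60 and 13. CD163 had 158 counts in Control 1.2 and 2 in Control 2.1. GZMB had 1287 counts in Control 3.1 and 141 in Control 2.1, and it made up 173 of the 196 CPM of the list in Control 3.1. The stroma and endothelium list summed to 606 CPM in Control 2.1, of which 584 were the intermediate filament gene VIM, and to at most 164 CPM elsewhere. LAPTM5, NKG7, TYROBP, SLAMF7, VIM and the list members LCP1 and BLA-DQB are among the study's most significant genes between diets. That ranking came from these same data and was known when the lists were chosen, so the sums of both lists are not independent of it. The T cell genes CD3D, CD3E, CD3G, CD2, CD4 and CD8A and the B cell genes CD79A and CD79B had no count in any pool. PTPRC, the common leukocyte antigen, had 18 counts in Control 2.1. SPP1, listed with the inner cell mass, had 1274 counts there and at most 3 elsewhere, and the highest values of FTH1, B2M and the cathepsins were from this pool. The part of such cells in these values was not tested. Without Control 2.1 the share of counts of the leukocyte list was 0.00890% in place of 0.0504%, and that of the stroma list 0.00793% in place of 0.0155%. The number of detected loci was then 6003.

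Markers of other maternal and germ cells had lower highest sums than the leukocyte and stroma lists. Control 2.1 set most of that contrast, since the highest sums of those lists elsewhere were 196 and 164 CPM. In Control 1.1 the leukocyte sum, 11.9 CPM, was below the 92.3 CPM of the oviduct and endometrium list. Summed per list, granulosa and cumulus genes ranged from 25.1 to 78.6 CPM, oviduct and endometrium genes from 36.8 to 94.0, erythroid genes from 4.62 to 54.0 and sperm genes from 6.59 to 71.8. The hemoglobin gene HBB, the progesterone receptor PGR and the protamine PRM1 had no count in any pool. Of 104 genes on the 6 lists, those of leukocytes and stroma included, 6 (5.77%) were detected and 42 (40.4%) undetected. Over all loci these shares were 26.3% and 36.6%. The detected ones were GZMB (60.2 ± 65.1 CPM), CLDN10 (39.2 ± 22.5 CPM), PECAM1 (30.1 ± 15.8 CPM), COL1A2 (28.8 ± 48.4 CPM), ALAS2 (14.8 ± 12.5 CPM) and CYP19A1 (14.7 ± 20.0 CPM).

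XIST, the RNA that coats the inactive X chromosome of female cells, and genes of the Y chromosome separated the pools. They were looked at after their values had been seen. XIST had 5500, 2068, 6478, 2427, 2326 and 6120 counts in the first 6 pools and 39 in Control 4.2. ZRSR2Y had 864, 998 and 701 counts in Control 1.1, 2.1 and 4.2 and at most 3 in the other 4 pools, and EIF2S3Y had 424, 223 and 324 in the same 3 pools and at most 2 in the others. Both kinds of transcript were thus counted in Control 1.1 and 2.1, XIST without them in Control 1.2, 2.2, 3.1 and 4.1, and Y-linked genes with little XIST in Control 4.2. The pools of cow 4, with a single blastocyst each, fell on opposite sides. SRY and ZFY had no count, and USP9Y had 159 counts in Control 4.2 only.

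**Figure D5:**
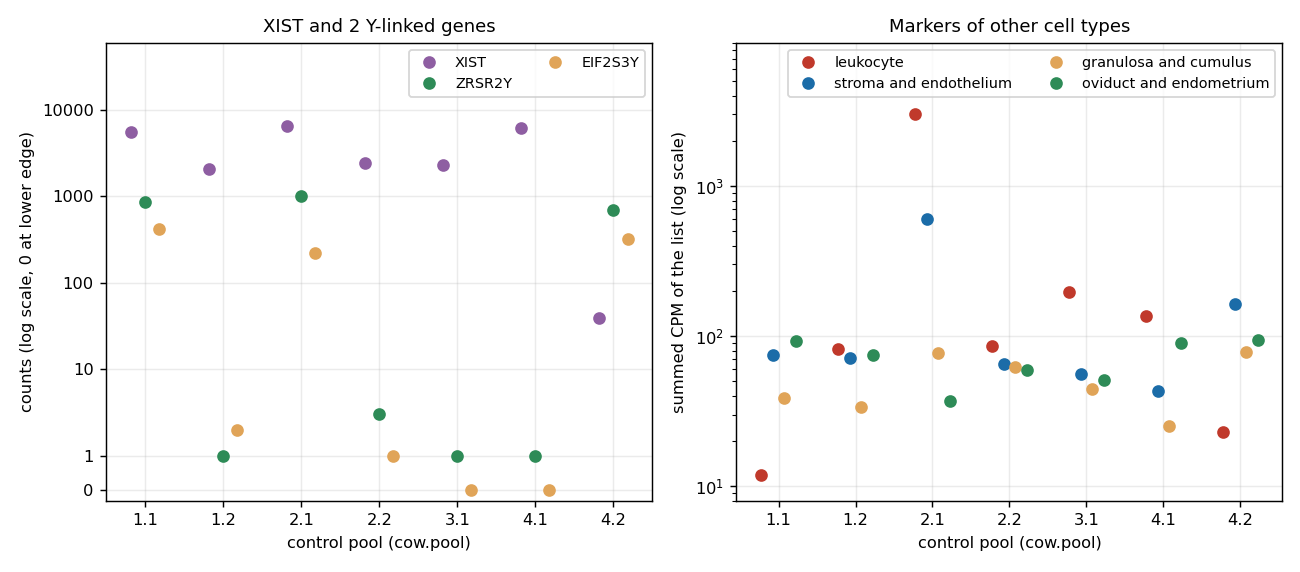
Left, counts (log scale, 0 at the lower edge) of XIST, ZRSR2Y and EIF2S3Y in each of the 7 control pools. Right, summed CPM (log scale) of 4 lists of markers of other cell types in the same pools. Control 4.2 has 39 counts of XIST, and the leukocyte list reaches 2996 CPM in Control 2.1.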

How the data were processed

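Total RNA of each pool of blastocysts was amplified with the MessageAmp II aRNA kit and sequenced as mRNA-Seq libraries on an Illumina HiSeq instrument. Per the study's methods and the submitters' processing notes, reads were mapped with TopHat2 2.0.4 to the bovine genome bosTau7, transcripts were assembled with Cufflinks 2.0.2, and uniquely mapped reads on exons were counted with HTSeq. The deposited values are raw counts per locus, not normalized, in 22552 rows per pool. They cover 22358 loci, of which 182 are listed once per gene name with the same count, and each locus was entered once. Totals lay between 5624126 and 7778414 counts. Tables of methionine-rich pools were not used.

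CPM, means, SD and ranks were computed in Python 3.11.15 with pandas 2.3.3. A list counts a gene under each name its locus carries and sums the loci of a name, whereas rankings are per locus. Of 980 listed genes 909 were found. Of 21330 names other than assembled units 17749 matched RefSeq names of another assembly. Cows were compared with edgeR 4.0.16 (TMM, glmQLFit, Benjamini-Hochberg adjustment, FDR under 0.10) on loci with summed CPM of at least 7, and with DESeq2 1.42.0 as an alternative, in R 4.3.3. Both were tested on simulated counts. Chi-square over degrees of freedom was at least 76.1 for each pair of pools, so no library was found repeated. Named genes were the 30 loci of highest mean CPM, the 10 with the lowest coefficient of variation from a mean of 100 CPM, the 10 highest loci with at least 50% of their CPM in 1 pool, the 4 leading members of each list, the whole lists of lineages, keratins and glycolysis, detected members of lists of later tissues and other cells, and loci with the smallest p between cows. A few genes that this rule names are not reported here. Other genes named, such as members at 0, were chosen after their values were seen. The members and lists were chosen with earlier results of these data known. Since nothing says that pools of a cow were handled on separate days, p-values measure only the spread between these pools. Intervals from counts cover counting error only.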

Additional observations from a re-analysis of the deposited data

Results flagged for a closer look

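Of 214 values examined (pool totals, list sums and named genes, each over the 7 pools), 53 had 1 pool set far from the others by Dixon's criterion. By that criterion chance alone sets apart about 1 in 20 groups of independent, normally distributed values. Here the values were untransformed, list sums shared genes with the named genes, and each pool set apart lay above the others. The rate of 1 in 20 is therefore no baseline for the 53. The named genes include 10 that were chosen because 1 pool held most of their CPM, so the number is not an estimate for all loci. Control 4.2 was the pool set apart in 20 cases, Control 2.1 in 16, Control 2.2 in 7, Control 4.1 in 5, Control 1.1 and 3.1 in 2 each, and Control 1.2 in 1.

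In Control 4.2, a pool of a single blastocyst, the summed CPM was 19015 for the methionine and folate list and 7419 for glycolysis. It was 5472 for the primitive endoderm and 1926 for the inner cell mass. Elsewhere these sums were at most 10833, 4409, 2953 and 992. Most of each sum in Control 4.2 came from a single gene. In the order of the lists these were ODC1 (16168 CPM), SLC2A3 (4355), FN1 (3703) and KLF4 (1624). Outside these genes, Control 4.2 was the highest pool for the glycolysis list only. Single genes set apart there were ODC1 (16168 CPM), EEF2 (6722), SLC2A3 (4355), FN1 (3703), CSRP2 (3676), HSPA8 (3168), KRT8 (2114), KLF4 (1624), LOC100851039 (1376), CTNNA1 (517), LDHB (499.8), UHRF1 (155), COL1A2 (137), CYP19A1 (56.95), LIN28A (53.4) and CDH1 (16.3), all above the other 6 pools.

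In Control 2.1 the summed CPM was 2996 for the leukocyte list, 606 for stroma and endothelium and 11.02 for milk proteins. Single genes above the other pools were B2M (3579 CPM), SEL1L (2790), CTSB (1582), LAPTM5 (1239), SLC31A2 (1175), CTSZ (1035), VIM (584), NKG7 (480), TYROBP (377), SLAMF7 (248), SPP1 (227), SOD1 (53.9) and TPI1 (22.8).

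In Control 2.2 the summed CPM was 1044 for amino acid transporters and 158 for factors of gastrulation, and IFNT2 (19.5 CPM), KRT7 (28.6), SOX2 (36.1), SALL4 (36.8) and FTL (15.9) were above the other pools. In Control 4.1, the other pool of a single blastocyst, these were RHOB (3091 CPM), SRSF2 (5392), HUWE1 (1216), AQP11 (18.1) and ELF5 (13.2). Control 1.1 was above the others in PDGFRA (186 CPM) and SLC7A5 (235), Control 1.2 in SNRPD1 (4038) and Control 3.1 in CDX2 (27.3) and GP2 (39.3).

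In Control 3.2, which entered only an alternative setting, 135 loci had at least 3 counts while having none in the other 7 control pools.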

How the results depend on the processing

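For 17 results, 213 alternative settings were computed and 208 stayed within the spread between pools or within 1.5 times the count. For every share of counts, the mean without 1 pool and the median over pools cannot lie farther than that spread from the mean. Those settings were bound to stay within it, so they are no check of the shares. For the shares of the leukocyte and stroma lists that spread (SD 0.110 and 0.0203 percentage points) is itself set by Control 2.1, and both moved by over 1.5 times without that pool, from 0.0504% to 0.00890% and from 0.0155% to 0.00793%, and with the median over pools, to 0.00864% and 0.00720%. With Control 3.2 included, detected loci fell from 5885 to 4471 and the smallest FDR between cows was 0.143, over 10737 loci. The median Spearman correlation between pools, 0.760, was 0.802 with no filter other than 1 count and 0.796 as Pearson correlation of log2(CPM + 1). The number of loci that differed between cows, 0 by the quasi-likelihood test, was 321 by DESeq2 and 620 of 15729 with no filter other than 1 count, and it lay between 0 and 7 when each pool was left out in turn. The 7 came without Control 2.2. The causes were not tested. With at least 10 counts in every pool it was 0 of 5532, with 303 loci at an unadjusted p under 0.05.

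A replicate block for pool number left the count of such loci at 0. For pools of the same number in different cows, the correlations of their deviations from the cow means were 0.0750, 0.0214 and 0.0730. Whether such pools shared any handling was not tested.

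Leaving out each pool in turn, detected loci numbered from 5941 to 6140 and undetected loci from 8445 to 8744, the ribosomal share was between 22.4% and 24.0%, and between 52 and 58 of the leading 100 loci were shared by all pools. The difference of the rank correlation within and between cows, -0.00394, lay between -0.0292 and 0.0184 and so changed sign. Without the pools of cow 4, an alternative chosen after seeing the data, detected loci numbered 6343 and the ribosomal share was 24.3%. Levels per kilobase of transcript were not run, because no transcript lengths of the build were at hand. Depth limits statements on loci under the floor of 3 counts, and counting intervals leave out the spread between pools.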
